A study of Homo sapiens with 6 samples.

Results

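The gasdermins are a family of 6 human genes, GSDMA, GSDMB, GSDMC, GSDMD, GSDME and PJVK, and their RNA was followed in KYSE410, an established line of human oesophageal squamous carcinoma cells. The 6 genes were chosen by name from a table of 58735 genes, and all 6 were found there. Polyadenylated RNA was sequenced from 3 control samples, titled NC and with the genotype given as wild type, and from 3 samples with ADAR1 knocked down (siADAR1). ADAR1 is the enzyme that turns adenosine into inosine in double-stranded RNA. Both groups carry the same cell line, culture medium and batch label, and the treatment field reads "No" for all 6, so no irradiation and no trigger of cell death is recorded for any of them. The labels do not say whether the controls received a non-targeting siRNA, how many siRNAs were used or how long after transfection the cells were taken, so what siRNA delivery did and what loss of ADAR1 did cannot be told apart.

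Most gasdermins consist of an amino-terminal domain that can form pores in membranes and a carboxy-terminal domain that holds it in check. A protease cuts the linker between them, the freed amino-terminal domains assemble into a pore in the plasma membrane, and the cell swells and releases its contents, a lytic death called pyroptosis. Because cleavage and not transcription opens the pore, RNA levels describe how much of each precursor could be made and not whether pyroptosis took place.

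Total counts per library were 15175619 to 17329443. ADAR, the knockdown target, had 456, 432 and 444 counts-per-million (CPM) in the control libraries and 92.8, 95.7 and 77.6 CPM in siADAR1. CPM here are counts divided by library size scaled with the trimmed mean of M-values (TMM). The first principal component held 75.4% of the variance and separated the groups. On the second, with 10.7%, both libraries numbered 1 stood apart. Control replicate 1 was at 28.9 and the other controls at -13.4 and -12.6, and siADAR1 replicate 1 was at 14.3 and the other siADAR1 libraries at -7.10 and -10.2, so the results below are also given without these libraries where that changes them. Of 10 markers of epithelium, squamous or general, 9 had enough counts to be tested, of which 3 rose, 3 fell and 3 were not called. Of all tested genes, 26.0% were called higher and 25.0% lower. Only 1 marker fell without control replicate 3 or on FPKM with no filter. KRT6A and KRT5, both keratins, fell by 2.24 and 0.54 on the log2 scale and CDH1, which encodes E-cadherin, by 0.34. DSG3, a desmosomal cadherin, rose by 1.54, TP63 by 0.48 and KRT17, a keratin, by 0.35. The summed level of the list was 1246 to 1386 CPM in control and 1269 to 1344 CPM in siADAR1. Much of it came from 2 general epithelial genes, so the sum does not show squamous identity. CDH1 averaged 575 CPM in control and 453 CPM in siADAR1, and EPCAM 255 and 216 CPM. SOX2 and PKP1 were low, at 1.24 and 1.90 CPM in control and 2.33 and 1.43 CPM in siADAR1. KRT14, a basal keratin, was absent with at most 2 counts in any library. The 7 leukocyte markers summed to at most 1.41 CPM in any library, with CD3E and LYZ at 0 in all 6. The 1 of them that was tested, CSF1R, had 1 to 3 counts in control and 10 to 14 in siADAR1. CSF1R had enough counts only through its siADAR1 libraries, so a rise was the only call open to it. The 3 endothelial markers summed to at most 2.15 CPM, and VWF, the 1 tested, did not pass. The 5 fibroblast markers summed to 12.4 to 19.6 CPM in control and 20.4 to 25.7 CPM in siADAR1, with no overlap and with DCN at 0 in all 6. Most of that sum was COL1A1, the 1 tested, which rose by 0.44 on the log2 scale (adjusted p = 0.041 in edgeR), a call that held without control replicate 3 but not without any of the other 5 libraries, nor on FPKM. The part of these markers in the gasdermin results was not tested. Separate cultures are not mentioned in the labels, so the spread that p-values measure, between these samples only, may be technical.

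KYSE410 expressed 3 gasdermins clearly, GSDMD, GSDMB and GSDME, and the other 3 were low or at the limit of detection. GSDMD (ENSG00000104518), the executioner cut by the inflammatory caspases, lies on chromosome 8 at 143553207 to 143563062 on GRCh38. It had 1494, 1332 and 1267 counts in the control libraries and 1361, 1316 and 1291 in the siADAR1 libraries, each in the order of replicates 1 to 3. GSDMB (ENSG00000073605), cut by granzyme A from killer lymphocytes, lies on chromosome 17 at 39904595 to 39919854 and had 883, 749 and 829 counts in control and 318, 371 and 382 in siADAR1. GSDME (ENSG00000105928), which granzyme B can cut, lies on chromosome 7 at 24698351 to 24758113 and had 957, 727 and 763 counts in control and 612, 612 and 609 in siADAR1. Over these 3 genes the lowest count in any library was 318.

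GSDMC, PJVK and GSDMA made up the low end of the family. GSDMC (ENSG00000147697), which caspase-8 can cut, lies on chromosome 8 at 129748196 to 129786888 and had 36, 53 and 32 counts in control and 42, 29 and 27 in siADAR1. PJVK (ENSG00000204311) encodes pejvakin, the member known for its role in hearing, and lies on chromosome 2 at 178451346 to 178461409. It had 27, 4 and 5 counts in control and 15, 11 and 20 in siADAR1, so a single control library held most of its control reads. GSDMA (ENSG00000167914), known from the skin, lies on chromosome 17 at 39953263 to 39977766 and had 0, 3 and 0 counts in control and 6, 3 and 1 in siADAR1. A count of 0 allows up to 3 counts per library, or 0.173 to 0.198 CPM on unscaled totals, and GSDMA was above that in siADAR1 replicate 1 alone. GSDMA was the member that did not pass the filter on low counts, and no fold change is given for it. All 6 are protein-coding genes, and the values are sums over all their exons.

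**Figure D1:**
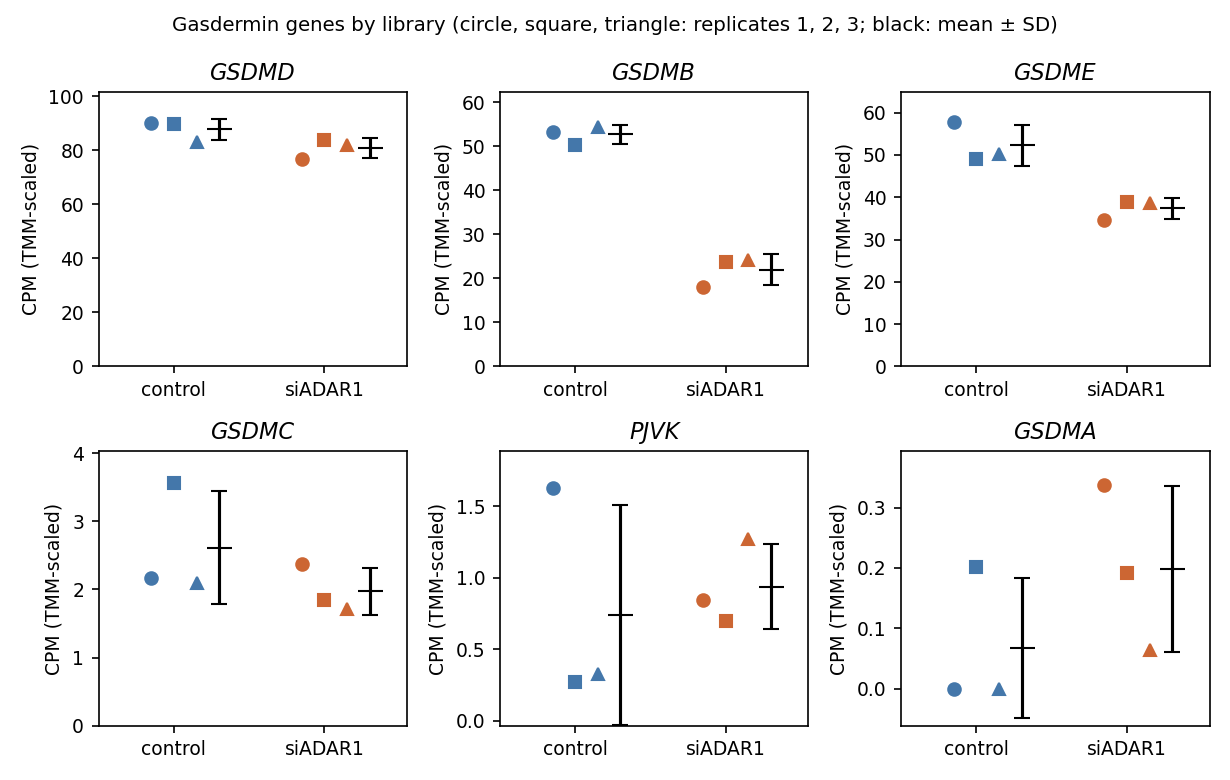
TMM-scaled CPM of each gasdermin gene (vertical axis, linear, one scale per panel) in the 3 control and 3 siADAR1 libraries, with the mean and SD of each group in black. GSDMB and GSDME are lower in every siADAR1 library than in any control library, while the groups overlap for the other 4 genes.

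Levels of different genes can be compared only per length, and here CPM were divided by the deposited gene length in kilobases. In control cells the order was GSDMD at 17.1 ± 0.761, GSDMB at 8.93 ± 0.355, GSDME at 5.91 ± 0.546, GSDMC at 0.891 ± 0.281, PJVK at 0.196 ± 0.203 and GSDMA at 0.0296 ± 0.0513 CPM per kilobase (SD, n = 3 each). The libraries of neighbours in this order did not overlap from GSDMD down to PJVK, while PJVK and GSDMA overlapped. In siADAR1 cells GSDMD stayed first at 15.8 ± 0.716 CPM per kilobase (SD, n = 3). GSDME at 4.23 ± 0.283 and GSDMB at 3.72 ± 0.591 CPM per kilobase (SD, n = 3 each) came next, and their libraries overlapped, at 3.90 to 4.41 and 3.04 to 4.11. Thus GSDMB was above GSDME in each control library and no longer separated from it in siADAR1. Against all tested protein-coding genes, the control level per kilobase of GSDMD exceeded 78.6% of genes, that of GSDMB 62.0%, that of GSDME 50.3% and that of GSDMC 16.2%. In siADAR1 these shares were 77.5%, 37.5%, 40.7% and 12.1%.

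The deposited length counts every annotated exon of a gene, including exons of rarely used transcripts. GSDMB has 15 annotated transcripts and a deposited length of 5905 bases, while its principal coding transcript in GENCODE release 29 has 1626 bases. For GSDME the lengths are 8843 and 2592 bases, and for GSDMD 5116 and 1762 bases. With the principal transcript in place of the deposited length, a choice made after seeing the data, the control order of these 3 was the same, at 49.8 CPM per kilobase for GSDMD, 32.4 for GSDMB and 20.2 for GSDME. Gene counts do not say which transcript was made, which matters for GSDMB because its splice forms differ in their ability to form pores.

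RefSeq's table of promoter windows (GRCh38.p14) held 3 of the 6 members, and the 30 bases just before the start site are shown because these 3 genes range from clearly expressed to the limit of detection. Capitals mark CG dinucleotides.
GSDME, chr7:24757465-24757494, minus strand: cctccccaagCGccCGcccccCGcCGgccc
PJVK, chr2:178451348-178451377, plus strand: gggttctcCGCGccCGcccctgcCGgccct
GSDMA, chr17:39962974-39963003, plus strand: taaagcagcctgtcctggcaagggatggtc
The full window of 300 bases held 35 CG dinucleotides for GSDME, 26 for the PJVK start shown and 4 for GSDMA, where the median of 35116 promoter windows was 14. As many CG dinucleotides or more were found in 14.1%, 30.1% and 75.5% of all windows. RefSeq lists 3 windows for PJVK: a second one held 26 CG dinucleotides too, and the third, at 178452989 to 178453288, held 4, as many as that of GSDMA. RefSeq's start of GSDMA lies 9741 bases from the start of the GENCODE gene, that of GSDME 649 and that of PJVK 32. The PJVK window shown lies inside PRKRA, a gene on the opposite strand that is described below. The start of PRKRA is 0.166 kb from that of PJVK, so the CG dinucleotides cannot be assigned to PJVK alone. Methylation was not measured.

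**Figure D2:**
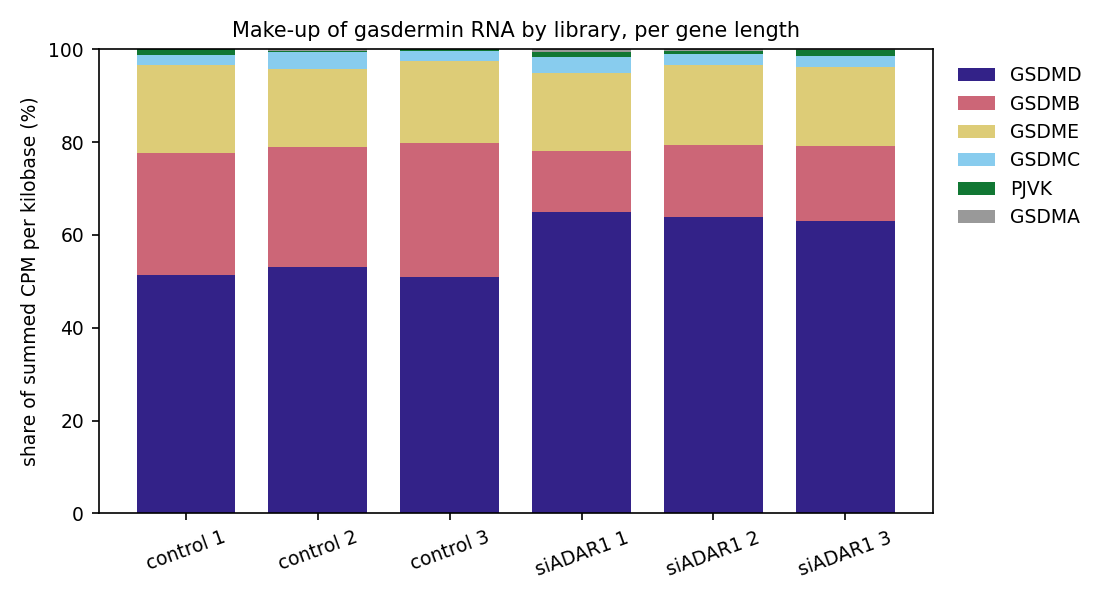
Share of each gasdermin in the summed CPM per kilobase of the family (vertical axis, percent, stacked to 100) in each of the 6 libraries. GSDMD takes 50.9 to 53.2% of the control bars and 63.0 to 64.9% of the siADAR1 bars, and GSDMB shrinks from 25.9 to 28.9% to 13.1 to 16.1%.

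Knockdown of ADAR1 was compared with control to see whether the supply of gasdermin RNA changed. GSDMB and GSDME fell, while GSDMC, GSDMD and PJVK did not pass. Of the 5 members tested, 2 passed at an adjusted p below 0.05, both lower, in edgeR's quasi-likelihood test adjusted over 15294 genes. In the same comparison 51.0% of all tested genes passed, 25.0% as lower and 26.0% as higher, so the number of gasdermins that passed was near the background. The groups did not overlap for 2 of the 5, against 60.3% of all tested genes. The number that rose was 0, also at an unadjusted p below 0.05, in DESeq2 and in limma-voom. The median log2 fold change of the 5 was -0.39, beside a median near 0 (0.0047) over all tested genes. That median is the value of GSDMC, which did not pass and was too low for a firm statement, so it does not describe the family.

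Among the 5 tested members GSDMB had the largest difference. Its level was 53.4, 50.4 and 54.5 CPM in control and 17.9, 23.6 and 24.3 CPM in siADAR1. Every siADAR1 library lay below the lowest control, at 41.6% of the control mean on average, and siADAR1 replicate 1 was the lowest. In RNA from bulk cultures, fewer cells expressing a gene and less RNA per cell cannot be told apart, here and below. This was a log2 fold change of -1.27 ± 0.13 (SE; 95% interval -1.54 to -0.99; adjusted p = 4.74e-06 in edgeR). Only 2.56% of tested genes had a lower log2 fold change. Without both libraries numbered 1 it was -1.13 ± 0.10 (SE).

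GSDME was lower by a smaller margin. Its level was 57.8, 48.9 and 50.1 CPM in control and 34.5, 39.0 and 38.7 CPM in siADAR1. The groups did not overlap, and the siADAR1 mean was 71.5% of control. On the log2 scale the change was -0.48 ± 0.11 (SE; 95% interval -0.72 to -0.25; adjusted p = 0.00219 in edgeR), and it was -0.35 ± 0.09 (SE) without both libraries numbered 1.

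GSDMD, the most abundant member, did not pass the test, and its groups overlapped. Its level was 90.3, 89.6 and 83.2 CPM in control and 76.8, 83.8 and 82.1 CPM in siADAR1, and siADAR1 replicate 2 lay above control replicate 3. The difference on the log2 scale was -0.12 ± 0.09 (SE; adjusted p = 0.285 in edgeR). Its 95% interval of -0.31 to 0.07 corresponds to folds of 0.808 to 1.05, so a change as large as that of GSDMB lay outside it. With library totals in place of TMM, a scaling that moved the median of all genes to 0.12, the log2 fold change of GSDMD was 9.07e-05.

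GSDMC and PJVK were too low for a firm statement at this depth. GSDMC was at 2.18, 3.57 and 2.10 CPM in control and 2.37, 1.85 and 1.72 CPM in siADAR1, and the groups overlapped. On the log2 scale GSDMC differed by -0.39 ± 0.32 (SE; 95% interval -1.08 to 0.29; adjusted p = 0.321 in edgeR). PJVK was at 1.63, 0.269 and 0.328 CPM in control and 0.846, 0.700 and 1.27 CPM in siADAR1. Control replicate 1 was above all siADAR1 libraries and the other control libraries were below all of them. On the log2 scale PJVK differed by 0.30 ± 0.61 (SE; 95% interval -1.01 to 1.62; adjusted p = 0.702 in edgeR). Control replicate 1 decided this value: without it the log2 fold change was 1.61 with an adjusted p of 0.0434, and without both libraries numbered 1 it was 1.69 with an adjusted p of 0.0357, within a range of 0.0357 to 0.967 over the alternatives. Without control replicate 2 or 3 it was -0.083 or -0.054.

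PJVK also overlaps another gene. PRKRA, a gene for a protein that switches on the kinase PKR, lies on the opposite strand, and 132 bases of its exons, or 3.48% of the exonic bases of PJVK, coincide with those of PJVK. PRKRA was at 56.9, 58.2 and 52.7 CPM in control and 22.6, 27.9 and 27.5 CPM in siADAR1, and fell by 1.11 ± 0.11 (SE) on the log2 scale. No strand-marking step appears in the library protocol, so reads from the shared bases cannot be told apart, and their part in the PJVK counts was not tested. None of the other 5 members overlaps an annotated gene.

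GSDMD made up a larger share of gasdermin RNA in siADAR1, although its own level did not pass the test. Shares are parts of the same sum, so lower GSDMB and GSDME raise the GSDMD share without a rise of GSDMD. The summed level of the 6 genes was 34.4, 33.0 and 32.0 CPM per kilobase in control and 23.1, 25.7 and 25.5 in siADAR1, or 74.8% of control on average. GSDMD made up 51.8% ± 1.20 of that sum in control and 63.9% ± 0.968 in siADAR1 (SD, n = 3 each), with no overlap. GSDMB made up 27.0% ± 1.61 in control and 14.9% ± 1.60 in siADAR1 (SD, n = 3 each), also with no overlap. The share of GSDME was 17.8% ± 1.12 and 17.1% ± 0.168 (SD, n = 3 each), and its groups overlapped. In each of the exact two-sided permutation tests of the sum, of the GSDMD share and of the GSDMB share, p was 0.1, the smallest that 3 libraries against 3 can give, and p was 0.4 for the GSDME share.

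Members were also compared with each other within each library. The log2 ratio of GSDMB to GSDMD per kilobase went from -0.94 ± 0.11 in control to -2.10 ± 0.18 in siADAR1 (SD, n = 3 each), a difference of -1.16. The log2 ratio of GSDMB to GSDME went from 0.60 ± 0.12 to -0.20 ± 0.14 (SD, n = 3 each), a difference of -0.80. That of GSDMD to GSDME went from 1.54 ± 0.12 to 1.90 ± 0.04 (SD, n = 3 each), a difference of 0.36. These ratios do not depend on the scaling of the libraries, and in all 3 pairs the groups did not overlap. The 3 ratios are not separate results, because any 2 of them fix the third. For single genes, the groups did not overlap in 60.3% of all tested genes, and the share over all pairs of genes was not computed. The exact two-sided permutation p was 0.1 for each pair, before and after Benjamini-Hochberg adjustment over the 3, and no smaller p is possible in this design.

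Of 11 listed proteases that cut gasdermins, 6 had enough counts, with 3 called lower, 1 called higher and 2 not called. In the same comparison 51.0% of all tested genes passed, 25.0% as lower and 26.0% as higher. CASP1 and CASP6 were among those that fell, and CASP4 and CASP8 did not pass. GZMA and GZMB, which encode the granzymes that cut GSDMB and GSDME, and CTSG and ELANE, which encode neutrophil proteases, had 0 counts in all 6 libraries. CASP5 had at most 3 counts in any library.

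Among the proteases of GSDMD, CASP1, the inflammasome protease, was at 71.8, 88.7 and 71.1 CPM in control and 36.5, 45.5 and 46.7 CPM in siADAR1. The groups did not overlap, and the log2 fold change of CASP1 was -0.85 ± 0.12 (SE; adjusted p = 9.55e-05 in edgeR). CASP1 shares much of its sequence with its neighbour CARD16, and how reads were divided between them is not known. CASP4, which senses bacterial lipopolysaccharide in the cytosol, was at 55.1 ± 0.346 CPM in control and 51.7 ± 2.39 CPM in siADAR1 (SD, n = 3 each), and did not pass (log2 fold change -0.09 ± 0.09, SE). CASP8, which can cut GSDMC and GSDMD, was at 31.4 ± 0.995 and 32.3 ± 3.62 CPM (SD, n = 3 each) and did not pass.

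CASP6, a caspase of apoptotic cells, was at 27.5, 28.1 and 24.4 CPM in control and 8.85, 12.6 and 15.1 CPM in siADAR1, a log2 fold change of -1.13 ± 0.17 (SE). Its groups did not overlap.

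**Figure D3:**
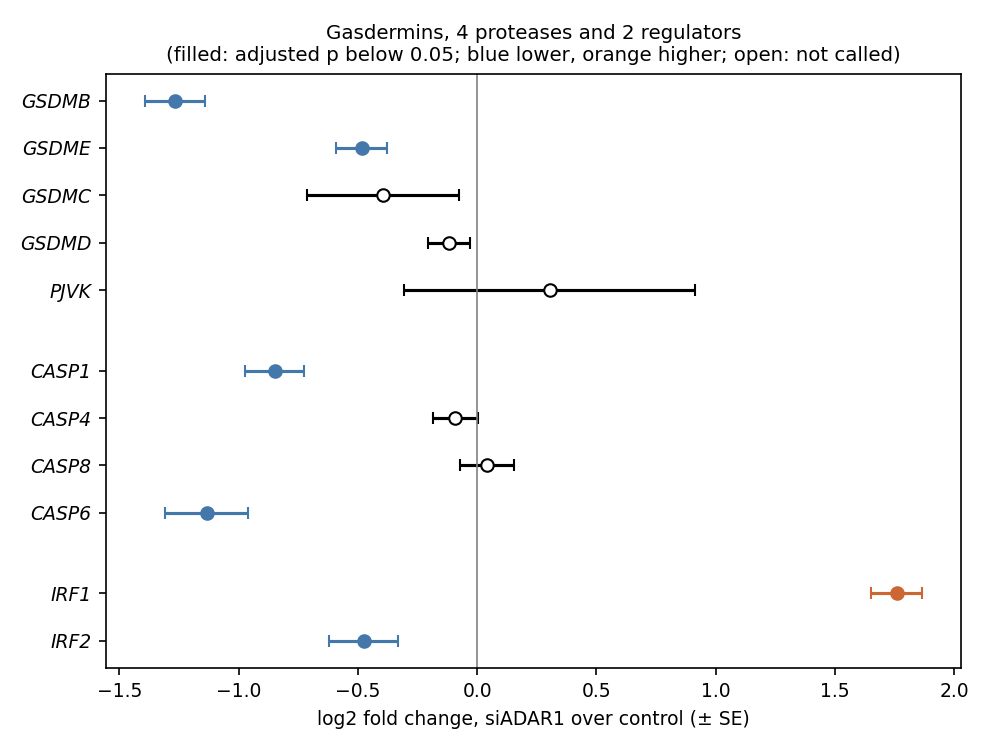
Log2 fold change of siADAR1 over control (horizontal axis, with SE) for the 5 tested gasdermins, 4 proteases and 2 regulators. GSDMB (-1.27) and CASP6 (-1.13) lie farthest to the left and IRF1 (1.76) farthest to the right, and open symbols mark genes that did not pass.

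Genes known to act on gasdermin transcription went both ways. Of 14 listed regulators, 7 rose, 6 fell and 1 did not pass, beside 26.0% of all tested genes called higher and 25.0% called lower. Their median log2 fold change was 0.07. IRF2, which encodes a factor that maintains GSDMD transcription, was at 26.1, 28.7 and 26.8 CPM in control and 15.5, 21.9 and 21.4 CPM in siADAR1. IRF2 thus fell, with a log2 fold change of -0.48 ± 0.14 (SE; adjusted p = 0.0144 in edgeR), and the call was lost on library totals (0.051), on FPKM with no filter (0.069) and with control replicate 2 left out (0.0544), within a range of 0.00198 to 0.069. IRF1, which can also act on gasdermin genes, rose from 45.3, 46.2 and 49.0 CPM in control to 181, 156 and 139 CPM in siADAR1, by 1.76 ± 0.11 (SE) on the log2 scale. NFKB1, a subunit of NF-kB, rose by 1.00 ± 0.16 (SE). The listed genes for DNA methylation went both ways. DNMT3B fell by 1.79 ± 0.20 (SE), UHRF1 by 1.03 ± 0.10 (SE) and DNMT1 by 0.42 ± 0.07 (SE) on the log2 scale. DNMT3A rose by 0.75 ± 0.15 (SE).

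Genes for pore assembly and membrane repair showed no common direction. The first list held palmitoyltransferases and a thioesterase that act on gasdermin D, the Ragulator and Rag proteins that help it to oligomerise, and NINJ1, which ruptures the plasma membrane after pores have formed. All of its 16 genes had enough counts, with 4 called higher, 4 called lower and 8 not called, a share near the 51.0% of all tested genes that were called. The median over the list was 0.01 on the log2 scale, and the number that rose was 2 on FPKM with no filter. ZDHHC5 and ZDHHC9, both palmitoyltransferases, had log2 fold changes of -0.49 ± 0.12 and -0.85 ± 0.13 (SE), while RRAGB, a Rag GTPase, and FNIP1, a regulator of Rag GTPases, rose by 1.18 ± 0.19 and 0.89 ± 0.13 (SE). NINJ1 was at 63.1, 50.4 and 40.0 CPM in control and 69.0, 54.4 and 57.7 CPM in siADAR1, with overlapping groups and a log2 fold change of 0.24 ± 0.15 (SE) that did not pass. Without control replicate 1 it was 0.41 with an adjusted p of 0.0189, and without both libraries numbered 1 it was 0.31 with an adjusted p of 0.00892, within a range of 0.00892 to 0.69.

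The ESCRT-III machinery and its partners, which remove damaged membrane and pores, numbered 18 genes, all with enough counts, of which 8 were called higher, 5 lower and 5 neither way, beside 26.0% of all tested genes called higher and 25.0% called lower. Their median log2 fold change was 0.0046. The number that rose was 3 or 4 when any 1 library was left out, 4 with no filter on low counts, 5 on FPKM with no filter and 8 without both libraries numbered 1, and 3 fell with library totals alone. On the log2 scale CHMP3 fell by 0.78 ± 0.11 (SE), IST1 by 0.41 ± 0.08 and CHMP7 by 0.43 ± 0.10, and CHMP4A, at 0.446 CPM in control, rose by 2.26 ± 0.43 (SE). CHMP4A, among the 8 called higher, passed the filter on low counts only through its siADAR1 libraries. A rise was thus the only call open to it.

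Genes for cargo that leaves cells through or after gasdermin pores mostly fell. Of 9 listed, 7 had enough counts, with 5 called lower, 1 higher and 1 not called, where 25.0% of all tested genes were called lower. The list was chosen with earlier results of these data known, so the count only describes it. The median log2 fold change of the 7 was -0.76. IL1B, a cytokine released through the pores, went from 81.5 ± 7.87 to 48.1 ± 8.47 CPM (SD, n = 3 each), while IL18, another such cytokine, was at 68.2 ± 2.16 and 59.2 ± 3.80 CPM (SD, n = 3 each) and did not pass. IL1A rose by 1.03 ± 0.23 (SE) on the log2 scale. HMGB1, a nuclear protein released by lysed cells, and LDHA, whose product is measured as a sign of lysis, had log2 fold changes of -0.92 ± 0.10 and -1.27 ± 0.11 (SE). Both genes have processed pseudogenes, and their counts could be affected by how shared reads were treated.

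GSDMB and GSDMA lie on chromosome 17 in the neighbourhood of ERBB2, and the fall of GSDMB was not shared by the gene next to it. Of 28 genes in a window of 250 kb on either side of GSDMB, 16 had enough counts, with 4 called higher, 4 called lower and 8 not called, near the 51.0% called among all tested genes. The median of the 16 was -0.04 on the log2 scale. ORMDL3, a regulator of sphingolipid synthesis whose annotated end lies 1.19 kb from GSDMB, was at 539, 556 and 545 CPM in control and 498, 532 and 544 CPM in siADAR1. Its groups overlapped, with a log2 fold change of -0.06 ± 0.07 (SE). The log2 ratio of GSDMB to ORMDL3 per kilobase, a comparison chosen after seeing the data, was -4.03 ± 0.08 in control and -5.25 ± 0.18 in siADAR1 (SD, n = 3 each), a difference of -1.22 with no overlap and an exact two-sided permutation p of 0.1, the smallest possible.

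On the other side of GSDMB, the nearest tested gene was IKZF3, which encodes a lymphoid transcription factor. It rose from 2.24, 1.48 and 1.97 CPM in control to 18.1, 12.1 and 13.9 CPM in siADAR1, or by 2.95 ± 0.23 (SE) on the log2 scale. ERBB2, the receptor gene that lies 174 kb from GSDMB, was at 5027 ± 212 CPM in control and 4580 ± 437 CPM in siADAR1 (SD, n = 3 each) and did not pass. Per kilobase, the control level was 487 for ERBB2, 146 for ORMDL3, 8.93 for GSDMB and 0.0296 for GSDMA. The neighbours on either side of GSDMB thus differed from it and from each other, one rising and one not called.

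**Figure D4:**
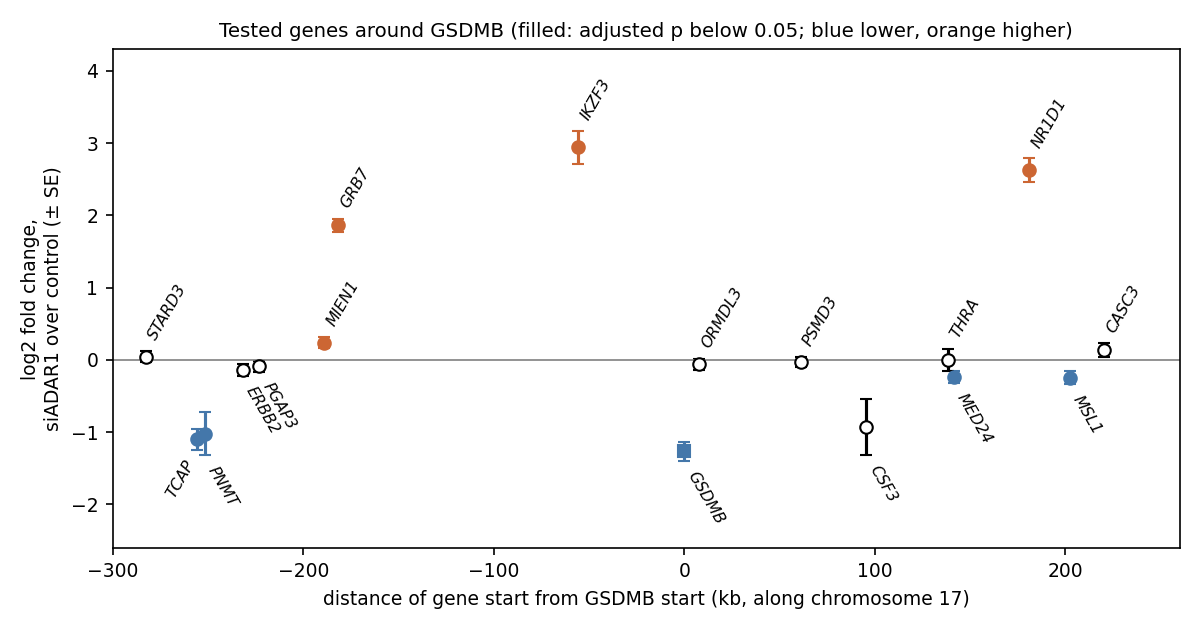
Log2 fold change of siADAR1 over control (vertical axis, with SE) of GSDMB (square) and the 16 tested genes around it, against the distance of each gene's start from the start of GSDMB (horizontal axis, kb). GSDMB (-1.27) lies between IKZF3 (2.95) and ORMDL3 (-0.06).

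The other members had between 1 and 20 tested neighbours. GSDME had 2 tested neighbours, MPP6 at a log2 fold change of -0.25 ± 0.10 (SE) and OSBPL3 at 0.16 ± 0.09 (SE), and neither passed. GSDMD had 20, of which 3 rose, 6 fell and 11 were not called, near the 51.0% called among all tested genes. Its nearest tested neighbours were ZC3H3, which rose by 0.29 ± 0.11 (SE), and MROH6, with a log2 fold change of -0.73 ± 0.13 (SE). GSDMC had 1 tested neighbour, FAM49B, with a log2 fold change of -0.98 ± 0.08 (SE). PJVK had 7, of which OSBPL6 rose, PRKRA fell and 5 were not called, beside the same 51.0%.

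To describe which genes varied most like each member, log2 CPM was centred on its mean over the 6 libraries and compared with 12259 protein-coding genes of at least 1 CPM by root-mean-square distance. This is a description over 6 libraries that share 2 groups. The genes closest to GSDMB were EOGT, TTYH2 and P4HA2, at distances of 0.0301, 0.0438 and 0.0535, where the median gene was at 0.654. Closest to GSDME were SCARB1, GPX3 and UBE2A, at 0.0304, 0.0323 and 0.0342, with the median gene at 0.322. Closest to GSDMD were SSU72, ANXA2 and CCDC124, at 0.0149, 0.0208 and 0.0245, with the median gene at 0.262. The closest genes to GSDMC (PLLP, at 0.096) and PJVK (ANKRD34A, at 0.138) lay farther away. The median genes for GSDMC and PJVK were at 0.371 and 0.602.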

How the data were processed

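Per the file headers and the values, the count table that the authors deposited holds raw whole-number reads for each gene. FPKM (fragments per kilobase, scaled to library size) were deposited too, for each library and as means of each group, and these carried a factor set by the authors, 0.966 to 1.06 of the count total; they served only in alternatives. The submitters' processing notes name CASAVA, fastp and HISAT2 2.0.5 without role or order. Counter, build and annotation: not given in the sources used here. The positions of all 58735 genes matched GENCODE release 29 on GRCh38. Every per-library column matched a sample by title, and the group means are the authors'.

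The test was run with edgeR 4.0.16 in R 4.3.3, on TMM-scaled counts kept by filterByExpr at a minimum count of 10. It was the robust quasi-likelihood test of group alone, two-sided and Benjamini-Hochberg adjusted over 15294 genes. The SE was the log2 fold change divided by the square root of F. The floor is 3 counts and covers counting error only, since reads carry no molecular identifiers. In 1 simulation on 15294 genes, 200 were changed. The test recovered 37.3% of 1.5-fold, 79.1% of 2-fold and 89.4% of 4-fold changes, with 9.27% false calls. In the data 51.0% of tested genes passed, a far larger share than was changed in the simulation. The recoveries therefore do not give the power of this comparison. Replicates differed by more than counting noise (chi-square per degree of freedom 3.95 to 18.0), so none was treated as a duplicate. Members and lists were chosen with earlier results of these data known. Named genes were the 6 members, up to 6 proteases and up to 4 genes of other lists by smallest p, genes whose role was needed, and nearest neighbours. Some genes these rules name are not reported here. The alternatives were other size factors, DESeq2 1.42.0, limma-voom (limma 3.58.1), other filters, FPKM, a replicate block and left-out libraries.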

Additional observations from a re-analysis of the deposited data

How the results depend on the processing

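GSDMB and GSDME kept their direction and their call under all 17 alternatives, with log2 fold changes of -1.34 to -1.08 and -0.53 to -0.35, and GSDMC was called in none (-0.67 to -0.11). With each library left out in turn the ranges were -1.34 to -1.14 for GSDMB, -0.53 to -0.42 for GSDME, -0.17 to -0.081 for GSDMD and -0.083 to 1.61 for PJVK. GSDMD turned to 9.07e-05 with library totals alone. PJVK turned to -0.083 without control replicate 2 and -0.054 without control replicate 3, and it passed without control replicate 1 (1.61) and without both libraries numbered 1 (1.69). There the number of gasdermins that rose was 1, and 0 to 1 with a library left out. PJVK had no value in the alternatives whose filter removed it. The differences between groups in the shares of GSDMD, GSDMB and GSDME kept their direction in each of the 9 alternatives run for them and moved by less than the spread between replicates. Part of this was fixed in advance. Deposited FPKM give the same shares, because a factor per library cancels in a share. For GSDMD and GSDMB, whose groups did not overlap, leaving libraries out could not reverse the direction. The shares themselves moved by more with the principal transcript's length: in control GSDMD took 47.9% and GSDMB 31.3%, and in siADAR1 GSDME took 19.2%. Values that did not pass also turned for CASP4 (0.027) and ORMDL3 (0.058) with library totals alone and for CASP8 (-0.044) without siADAR1 replicate 3 (-0.044 to 0.10 with each library left out); apart from the left-out libraries, the cause was not tested. Same-numbered libraries deviated together with correlations of 0.281, 0.0915 and 0.145, and differently numbered ones with -0.214 to 0.118. These values do not decide whether the numbers pair samples. The main test was of group alone, and the replicate block was an alternative. With the replicate block the log2 fold changes were -1.28 for GSDMB, -0.48 for GSDME, -0.12 for GSDMD, -0.37 for GSDMC and 0.51 for PJVK, with no gasdermin call changed, and NINJ1 passed (adjusted p = 0.041, range 0.00892 to 0.69). Depth limits GSDMC, PJVK and GSDMA.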
